A study of Arabidopsis thaliana with 5 samples.

Results

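The regions described here are JACKDAW (JKD) binding regions that lie between genes and are absent from the list of its relative BLUEJAY (BLJ). A region of the JKD list was taken where it shared no base with any BLJ region and where its midpoint, its start plus the deposited summit, fell outside every protein-coding gene of chromosomes 1 to 5. This held for 1837 of 21985 JKD regions, or 8.36% of the list. They are called JKD-only regions between genes below. The values that chose them are the calls of both lists, so the density, reproducibility, width and distance to BLJ given here are descriptions and carry no test.

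Binding was mapped by ChIP-seq, the sequencing of DNA precipitated together with a protein, in whole roots of Arabidopsis thaliana, ecotype Columbia. The samples comprised 2 libraries of plants carrying JKD fused to yellow fluorescent protein, expressed in ground tissue and the stem cell organizer (quiescent centre, QC), 2 libraries of plants carrying the BLJ fusion, expressed in ground tissue, and 1 library of wild-type plants with no fusion. All were precipitated with the same antibody against GFP, AbCam290, which also binds the yellow variant. The promoter behind each fusion is not given in the labels. Each factor had a single list made from both of its replicates, so no count or share below has a replicate of its own. Every row of a list gives 2 density values, one for each replicate without saying which, and the irreproducible discovery rate (IDR). By its usual definition the IDR is low where both replicates consistently rank a region high. In the JKD list the IDR ran from 0.000218 to 0.339, so values near 0.339 are the poorest it holds. The read depth of the libraries is unknown, and no wild-type value was analysed here beside the regions. In whole roots, strong binding in few cells and weaker binding in many cannot be told apart.

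JKD and BLJ are C2H2 zinc finger proteins of the INDETERMINATE DOMAIN (IDD) family, known as the BIRD proteins of the root. They act with the GRAS factors SHORT-ROOT (SHR) and SCARECROW (SCR), which specify endodermis and the division that separates it from cortex. JKD is known to limit the movement of SHR, to maintain SCR expression in ground tissue and QC, and to influence the pattern of the overlying epidermis. Stretches between genes hold promoters, enhancers, non-coding RNA genes and transposon remnants. Without strand in the gene table used here, a region beside a gene cannot be placed upstream or downstream of it.

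JKD-only regions between genes were narrower than most of the list and a little less dense. Their median width was 564 bp, with quartiles of 419 and 812 bp. The median width was 587 bp for JKD-only regions inside genes and 952 bp for JKD regions between genes that BLJ shared. The median first-listed density was 1.08 and the median second-listed density 1.48, against 1.09 and 1.49 over all JKD regions. Regions were ranked by the mean of the log2 of both densities, called here the density percentile within the JKD list. By that measure JKD-only regions between genes had a median percentile of 46.2, JKD-only regions inside genes 30.5 and shared regions between genes 65.1. Shared regions inside genes had a median percentile of 52.0. Thus regions between genes were denser than those inside genes, both where BLJ lacked them and where it shared them. Among regions between genes, those that BLJ lacked were the less dense.

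**Figure D1:**
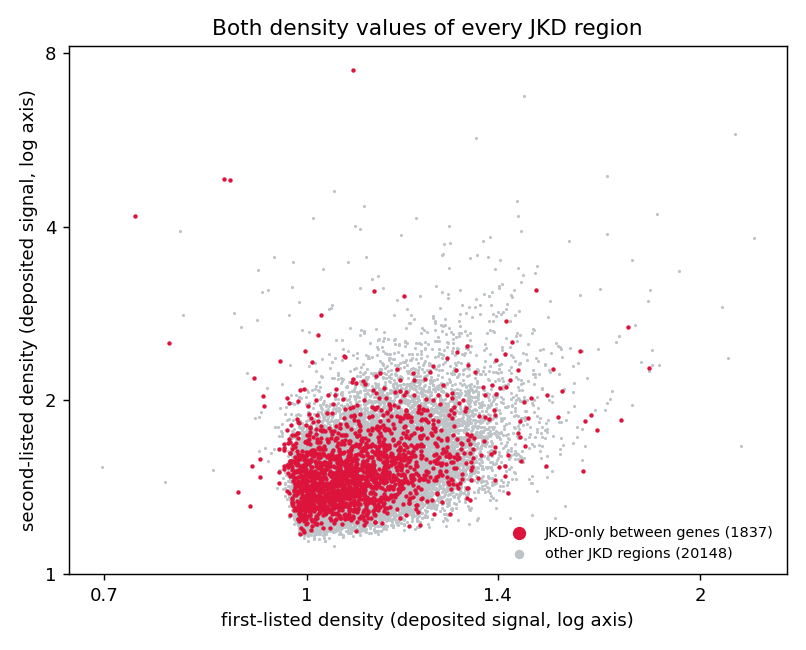
Second-listed against first-listed density of every JKD region, both on log axes, with the 1837 JKD-only regions between genes in red and all other JKD regions in grey. Most red points lie inside the grey cloud near 1.08 and 1.48, and a few stand far above it with a first-listed value near or below 1.

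Width and density went together. Among JKD-only regions between genes, width and mean log2 density had a Spearman correlation of 0.406 over 1837 regions, a description across regions of the same 2 libraries. Among regions of at least 400 and under 600 bp the median percentile was 46.3 for JKD-only and 49.9 for shared regions between genes. From 600 to under 1000 bp the medians were 57.6 for JKD-only and 66.5 for shared regions, and from 1000 to under 2000 bp they were 59.0 for JKD-only and 72.0 for shared regions. Under 400 bp the order turned, with medians of 20.6 for the 399 JKD-only and 18.4 for the 183 shared regions. At like width the shared regions were therefore the denser from 400 bp on, but not among the narrowest. Only 28 JKD-only regions between genes (1.52%) were 2000 bp wide or more, against 14.3% of shared regions between genes.

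Reproducibility followed the same order. An IDR of 0.05 or less was reached by 282 of the 1837 regions (15.4%, 95% Wilson interval 13.8 to 17.1), where 17.7% of all JKD regions reached it. JKD-only regions inside genes reached 0.05 in 7.75% of cases (6.87 to 8.72) and shared regions between genes in 28.4% (26.8 to 30.1). An IDR of 0.1 or less was carried by 588 JKD-only regions between genes (32.0%), against 35.8% of all JKD regions. At the stricter limit of 0.01 the counts were 74 of 1837 JKD-only regions between genes (4.03%) and 272 of 2934 shared ones (9.27%), and 4.39% over the whole list. The other end was filled as well. An IDR of 0.3 or more was carried by 186 of the 1837 regions (10.1%), with a median first-listed density of 0.984 beside a second-listed one of 1.52, and by 6.07% of shared regions between genes. JKD-only regions inside genes had a like tail. The 90th percentile of the IDR was 0.301 for the 1837 regions, 0.303 for JKD-only regions inside genes and 0.284 over all JKD regions. The Wilson intervals given here cover counting error only.

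**Figure D2:**
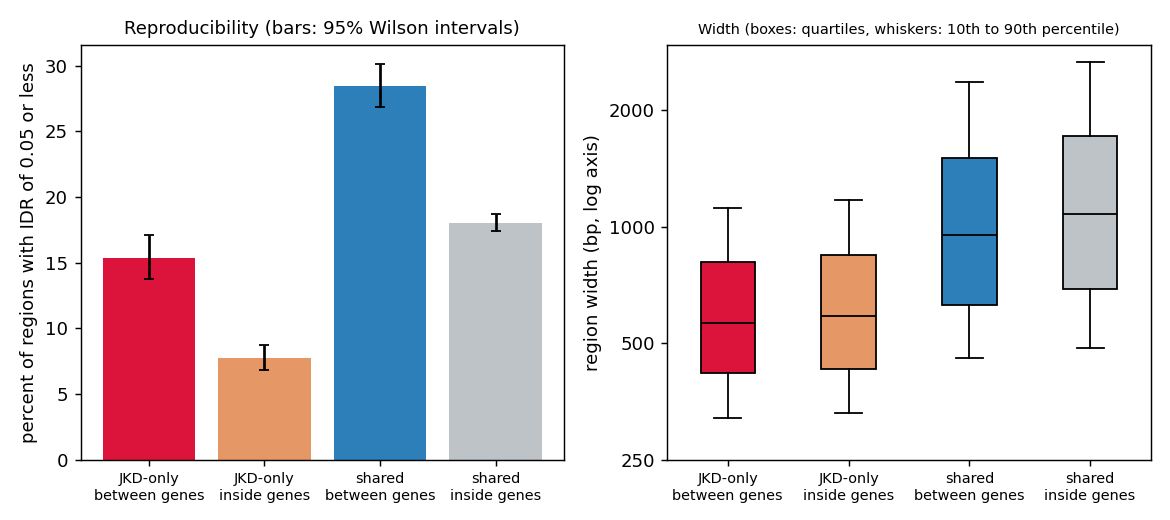
Left, percent of regions with an IDR of 0.05 or less, with 95% Wilson intervals; right, region width on a log axis, with boxes for quartiles and whiskers for the 10th and 90th percentiles. JKD-only regions between genes stand at 15.4%, above JKD-only regions inside genes and below shared regions between genes, and both JKD-only sets are narrow.

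Both limits of the rule cut through a continuous range. The JKD-only region closest to a BLJ region lay 8 bp from it, on chromosome 3 (5403175 to 5403789, densities 1.00 and 1.34, IDR 0.118). Its midpoint lay 487 bp from AT3G15960 and 828 bp from NAI2. The shared region between genes with the least overlap, 3 bp, lay on the same chromosome (7958139 to 7958667, densities 1.10 and 1.43, IDR 0.106). The 122 JKD-only regions with a BLJ region under 250 bp away had a median percentile of 39.4, and the 96 shared regions with under 250 bp of overlap one of 26.4. On the gene side, 3 JKD-only regions had their midpoint on the base next to a protein-coding gene, among them one beside AT3G05830 (densities 1.31 and 1.59, IDR 0.0278). A region with its midpoint 1 base inside NFU4 (densities 1.09 and 1.34, IDR 0.231) fell outside the set. A base of a protein-coding gene was touched by 470 of the 1837 regions (25.6%), while the other 1367 lay wholly between genes.

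Absence from the BLJ list did not mean distance from BLJ regions. The median gap to the nearest BLJ region was 1133 bp, with quartiles of 557 and 2325 bp. JKD-only regions inside genes had a smaller median gap, 978 bp. A BLJ region lay within 500 bp of 406 of the JKD-only regions between genes (22.1%) and within 1000 bp of 842 (45.8%). For JKD-only regions inside genes these shares were higher, 27.3% and 50.8%. More than 5000 bp from any BLJ region lay 155 of the JKD-only regions between genes (8.44%) and 6.21% of those inside genes. In the 5 classes of gap up to 5000 bp the median percentile of JKD-only regions between genes lay between 39.4 and 46.2. Beyond 5000 bp it was 60.7. The median second-listed density beyond 5000 bp was 1.59, while the first-listed one was 1.08. Where only BLJ regions at an IDR of 0.1 or less counted, 3930 JKD regions between genes met the rule, so membership depends on the limit set on the BLJ list.

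The most reproducible regions had neighbours of several kinds, enzymes of hormone metabolism and transcription factors among them. Distances to genes are counted from the midpoint of a region here and up to the lists of root genes, and from its nearer edge there. Of the 10 of highest density and the 10 of lowest IDR, 7 were the same. The lowest IDR, 0.000655, belonged to a region on chromosome 3 (11808213 to 11809565, densities 1.76 and 2.68) whose midpoint lay 1836 bp from BR6OX2 (AT3G30180). This gene encodes the cytochrome P450 that makes brassinolide, the most active brassinosteroid. Beside CKX3 (AT5G56970), an oxidase that breaks down cytokinin, a region on chromosome 5 (23043734 to 23044749) held densities of 1.42 and 2.75 with an IDR of 0.00147, 596 bp from the gene. A region on chromosome 1 (25056530 to 25057072, densities 1.54 and 2.26, IDR 0.00154) lay 1936 bp from LBD40, a LOB domain gene, and 4871 bp on its other side from CYP735A2, an enzyme of trans-zeatin synthesis. Of these enzyme genes, BR6OX2 and CKX3 were the nearest protein-coding genes to their regions, while LBD40 stood nearer than CYP735A2. The nearest BLJ region lay 2251 bp from the region near BR6OX2, 370 bp from that near CKX3 and 1718 bp from that near LBD40.

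Among transcription factor genes, AIB (AT2G46510, also JAM1), a bHLH repressor of jasmonate responses, had a region 739 bp away on chromosome 2 (19093753 to 19094473, densities 1.62 and 2.44, IDR 0.00101). A BLJ region lay 267 bp from it. NAM (AT1G52880), a NAC gene, had a region 1270 bp away on chromosome 1 (19691405 to 19692315, densities 1.83 and 2.27, IDR 0.00121), with NAC019 5062 bp on the other side. That first-listed value was the highest of all 1837. A region on chromosome 1 (27859270 to 27860070, densities 1.57 and 2.08, IDR 0.00159) lay 1445 bp from AT1G74088 and 2071 bp from MYB122, a regulator of indole glucosinolates. Near bHLH093 (AT5G65640) a region on chromosome 5 (26232758 to 26234209, densities 1.42 and 2.11, IDR 0.00176) lay 3479 bp from the gene. In each of these both values ranked in the highest 5 percent of the list. The nearest BLJ region lay 762 bp from the region near NAM, 220 bp from that near MYB122 and 1124 bp from that near bHLH093.

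The other regions of lowest IDR lay beside genes of other kinds. On chromosome 2 a region of 471 bp (9023046 to 9023516, densities 1.5 and 3.10, IDR 0.000847) overlapped the transcribed pseudogene AT2G21020, 1254 bp from AT2G21030. On chromosome 1 a wide region (28990529 to 28992857, densities 1.43 and 2.52, IDR 0.00156) reached into AT1G77145, with its midpoint 238 bp outside the gene. Beside ATK4 (AT5G27000), a kinesin gene, a region on chromosome 5 (9497466 to 9498020, densities 1.43 and 2.17, IDR 0.00161) had its midpoint 195 bp away. The nearest BLJ regions lay 1882, 1992 and 2605 bp from these regions, in that order.

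The 74 regions with an IDR of 0.01 or less had first-listed densities of 1.23 to 1.83 and second-listed ones of 1.72 to 3.10. Their median percentile was 97.0, their median width 740.5 bp, and the midpoints of 41 (55.4%) lay within 1000 bp of a protein-coding gene, close to the 56.7% of all 1837. The following were picked from them after their values had been seen. Regions lay 629 bp from the homeodomain gene RPL (densities 1.33 and 2.49, IDR 0.00329), 1840 bp from AP2, a floral regulator (1.39 and 1.92, IDR 0.00235), and 592 bp from EMF1, a repressor of flowering (1.29 and 2.06, IDR 0.00478). Others lay 337 bp from the receptor kinase gene RPK1 (1.48 and 2.02, IDR 0.00197) and 841 bp from MYC3, an activator of jasmonate responses (1.27 and 1.78, IDR 0.00777). A region 1465 bp from MYB77, a regulator of lateral roots, held 1.33 and 2.31 (IDR 0.00334) and lay 4341 bp from CYCD3;3, a D-type cyclin gene, on its other side. The gap from these picked regions to the nearest BLJ region ran from 243 bp at EMF1 to 1840 bp at AP2.

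Some of the densest regions rested on the second-listed value alone. The highest density of all 1837 belonged to a region on chromosome 1 (11171203 to 11171872) with a first-listed density of 1.09, a second-listed one of 7.48 and an IDR of 0.315. It overlapped the non-coding RNA gene AT1G31258, 1141 bp from AT1G31255 and 4020 bp from the metal transporter gene ZIP10. The second-listed value was the highest in the whole JKD list, while the first-listed one had a percentile of 46.3. On chromosome 2 a region of 394 bp (3730176 to 3730569) held 0.873 and 4.82 with an IDR of 0.339, over the pseudogene AT2G09865 and 24778 bp from AT2G09840.

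In all, 26 of the 1837 regions (1.42%, interval 0.968 to 2.07) had a second-listed value in the highest 5 percent and a first-listed value below the median. The share was 0.650% over all JKD regions and 0.886% (0.605 to 1.30) in shared regions between genes. The IDR of these 26 had a median of 0.318, 16 of them had one of 0.3 or more, and 11 lay in gene-poor windows, defined below. The reverse, a first-listed value in the highest 5 percent and a second-listed one below the median, was met by 12 (0.653%). It was met by 0.596% of all JKD regions and 1.02% of shared regions between genes. The 12 were led by a region 382 bp from CYP707A1, an enzyme that breaks down abscisic acid (1.42 and 1.39, IDR 0.168). Both values stood in the highest 5 percent in 25 regions (1.36%), with IDR between 0.000655 and 0.00619. This share was 1.54% over all JKD regions and 3.99% in shared regions between genes. Per the deposited sample sheets the replicates of JKD ran on different flow cells, whereas the labels speak of a single lane. If the sheets hold, replicate and flow cell cannot be told apart in these differences.

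Both values agreed less here than in the list as a whole. Their Spearman correlation was 0.307 over the 1837 regions and 0.407 over all JKD regions, each a description across regions that share the same libraries. Of the 1837 regions, 250 (13.6%) had a first-listed value below 1, against 8.61% of all JKD regions. The share was higher still in JKD-only regions inside genes, at 15.8%, and 6.24% in shared regions between genes. Within JKD-only regions between genes the IDR went mainly with the first-listed value, with a Spearman correlation of -0.684, and less with the second-listed one, at -0.338. In the whole list these were -0.629 and -0.502.

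The regions stood farther from genes than shared regions did. The median distance from midpoint to the nearest protein-coding gene was 848 bp, against 404 bp for shared regions between genes. The midpoint lay under 250 bp from a gene in 21.0% of JKD-only regions between genes and in 39.1% of shared ones. From 1000 to under 2000 bp the shares were 24.8% of JKD-only and 16.1% of shared regions, and from 2000 to under 5000 bp they were 15.7% of JKD-only and 8.96% of shared regions. The sets also differ in width, with medians of 564 and 952 bp, and the part of width in this difference was not tested. The density percentile was higher far from genes, as was the second-listed value but not the first-listed one. The median percentile was 42.2 under 250 bp from a gene, 46.4 from 1000 to under 2000 bp, 55.4 from 2000 to under 5000 bp and 69.2 in the 50 regions at 5000 bp or more. The median second-listed density was 1.46 under 250 bp and 1.62 at 5000 bp or more. The median first-listed density was 1.08 under 250 bp and 1.06 at 5000 bp or more, the lowest of the classes.

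**Figure D3:**
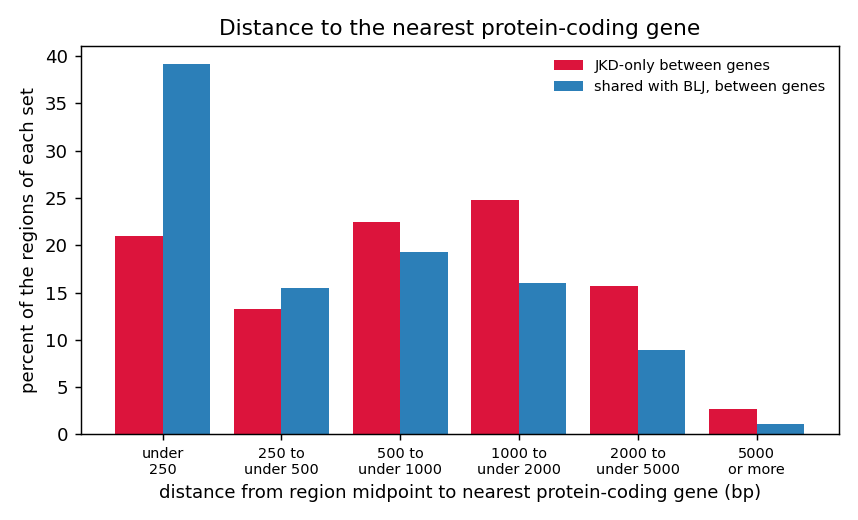
Percent of JKD-only regions between genes (red) and of JKD regions between genes shared with BLJ (blue) by the distance in bp from the region midpoint to the nearest protein-coding gene. The first bin holds 21.0% of the red and 39.1% of the blue set, and the red set has the larger share in every bin from 500 bp on.

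Long stretches between genes held most of them. Protein-coding genes of chromosomes 1 to 5 are separated by 23815 stretches with no coding gene, of a median length of 877 bp. A JKD-only region had its midpoint in 1672 of them, with a median length of 3249.5 bp, and a shared JKD region in 2705, with a median of 2046 bp. Of stretches under 500 bp, 0.820% held a JKD-only region and 4.2% a shared one. From 2000 to under 5000 bp the shares were 15.6% with a JKD-only and 20.2% with a shared region, and at 5000 bp or more 23.6% with a JKD-only and 22.7% with a shared region. Counted per length of stretch, JKD-only regions numbered 41.4 to 44.3 per Mb in the 3 classes below 2000 bp, 53.2 per Mb from 2000 to under 5000 bp and 20.6 per Mb above. Of the 1672 stretches, 350 (20.9%) also held the midpoint of a BLJ region, and 253 (15.1%) that of a shared JKD region.

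**Figure D4:**
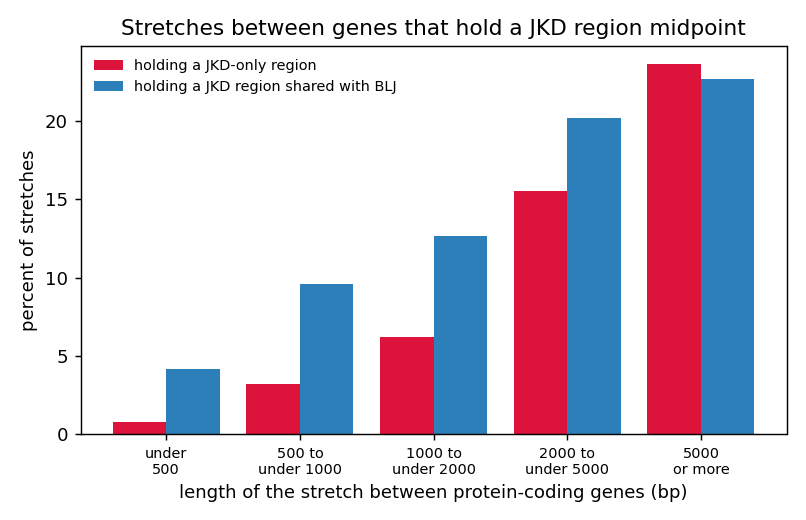
Percent of stretches between protein-coding genes that hold the midpoint of a JKD-only region (red) or of a JKD region shared with BLJ (blue), by stretch length in bp. The shares are 0.820% (red) and 4.2% (blue) in the shortest class and 23.6% (red) and 22.7% (blue) in the longest.

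Some stretches held several. In 142 of them there were 2 or more JKD-only regions, and in 19 there were 3 or more. The following were singled out after these counts had been seen. The most, 5, lay in the 17123 bp on chromosome 2 between GPAT6, an acyltransferase gene of cutin synthesis, and AUX1, the auxin influx carrier. Their first-listed densities ranged from 1.00 to 1.18 and their second-listed ones from 1.30 to 2.01. The one at 15961305 to 15962623 had an IDR of 0.0354, and the others had one above 0.1. The 5411 bp between ACA7 and NRT2:1, a high-affinity nitrate transporter gene, held 3, with an IDR of 0.164 to 0.206. Another 3 lay in the 4394 bp between IRT1, the main iron transporter of the root surface, and AT4G19700. The densest of them (chromosome 4, 10712461 to 10713088) held 1.30 and 1.53 with an IDR of 0.0628 and lay nearer to AT4G19700 than to IRT1. Between DWF4, a gene of an early oxidation step in brassinosteroid synthesis, and U1-70K, 3 regions had an IDR of 0.284 to 0.337. None of these clusters reached the highest densities.

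All 5 chromosomes held their part, with 352 of 3561 JKD regions on chromosome 2 (9.88%, interval 8.95 to 10.9) and between 7.67% and 8.39% on the other chromosomes. Gene-poor windows, windows of 500 kb with less than 30% of their bases in protein-coding genes, make up 17.3% of the chromosomes. They held 121 of the 1837 regions (6.59%, interval 5.54 to 7.81), 3.17% of shared regions between genes (2.59 to 3.87) and 2.62% of all JKD regions. These 121 had a median second-listed density of 1.63, against 1.48 for the 1716 elsewhere, and a median first-listed density of 1.08 in both. In gene-poor windows the values of the replicates did not go together, with a Spearman correlation of 0.0139 over 121 regions, against 0.332 over the 1716 elsewhere. An IDR of 0.05 or less was held by 27 of the 121 (22.3%, interval 15.8 to 30.5) and by 14.9% elsewhere (13.3 to 16.6). The poor end was fuller there as well, with a 90th percentile of the IDR of 0.336 in gene-poor windows and 0.296 elsewhere. A first-listed value below 1 was held by 22.3% in gene-poor windows and by 13.0% elsewhere.

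The regions farthest from any protein-coding gene lay there. A region of 469 bp on chromosome 3 (13884900 to 13885368, densities 1.02 and 2.60, IDR 0.319) was 135552 bp from AT3G33187 and overlapped the pseudogene AT3G33115. On chromosome 5 a region 80262 bp from AT5G32619 (12358129 to 12358578) held 1.22 and 1.86 with an IDR of 0.0114, and the nearest BLJ region was 204104 bp away. On chromosome 4 a region 39791 bp from AT4G06599 (3707082 to 3707596) held 1.15 and 2.10 with an IDR of 0.0389, and one 31477 bp from AT4G08097 held 1.13 and 1.63 with an IDR of 0.106. A region 25702 bp from AT5G30495 (11406929 to 11407791), over the pseudogene AT5G30942, held 1.19 and 3.03 with an IDR of 0.0396. Of these 5, 3 met the IDR limit of 0.05, so remoteness from genes did not go with poor reproducibility throughout.

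The widest regions were of another kind. The widest, 8433 bp on chromosome 2 (3283234 to 3291666), reached into ABCI4 and held 0.955 and 2.34 with an IDR of 0.339. The next, 8403 bp (3475290 to 3483692), held 0.864 and 4.83, again with an IDR of 0.339, and lay in a block that the JKD list covers nearly without gaps. This stretch of chromosome 2 is known to carry a long copy of mitochondrial DNA in the reference assembly. In both, the first-listed value was among the lowest of the list and the second-listed one among the highest. The other 3 of the 5 widest were 7194 bp at AT1G38131 (1.13 and 1.93, IDR 0.0743), 4724 bp at LIN2 (1.16 and 1.48, IDR 0.163) and 4156 bp near AT5G44410 (1.09 and 2.14, IDR 0.0304). Of 1837 regions, 2 lay in the 3 wide blocks of the JKD list, the second of them in the block on chromosome 5 that holds the JKD gene itself (765626 to 765905, densities 1.06 and 1.37, IDR 0.296).

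Non-coding genes were touched by 392 of the 1837 regions (21.3%, interval 19.5 to 23.3), against 28.7% of shared regions between genes (27.1 to 30.4). Over all JKD regions, most of which lie inside genes, the share was 11.5%. Long non-coding RNA genes came first, with 167 regions (9.09%), 11.5% of the shared ones and 5.96% of all JKD regions. Pseudogenes followed with 117 (6.37%), against 5.59% of the shared ones and 1.51% of all. Transcribed pseudogenes were touched by 49 (2.67%), against 4.23% of the shared ones and 1.08% of all. Transfer RNA genes were touched by 13 regions, a share of 0.708% (0.414 to 1.21), against 3.51% (2.90 to 4.24) of shared regions between genes and 1.43% of all JKD regions. The intervals of these tRNA shares do not meet, but they cover counting error only and are no test between the sets. Shared regions are wider, and the part of width in these shares was not tested. Counted by midpoint, the shares in a non-coding gene lay closer together. They were 13.9% of JKD-only regions between genes (12.4 to 15.5) and 15.4% of shared ones (14.2 to 16.8). In gene-poor windows 68 of the 121 regions touched a non-coding gene (56.2%).

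**Figure D5:**
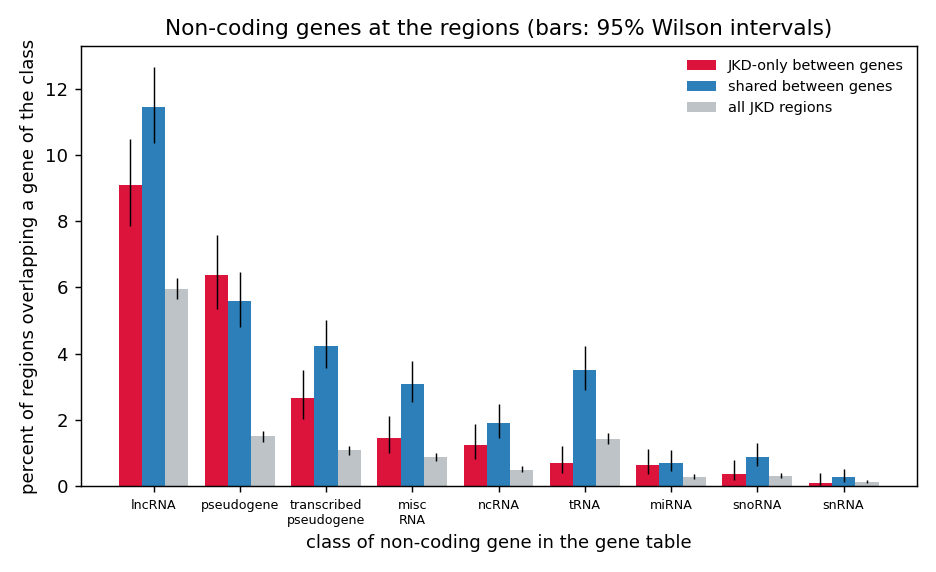
Percent of regions that overlap a non-coding gene by at least 1 bp, by class of gene, for JKD-only regions between genes (red), shared regions between genes (blue) and all JKD regions (grey), with 95% Wilson intervals. The red bar is highest for lncRNA genes at 9.09%, and for tRNA genes it stands at 0.708%, below the blue bar at 3.51%.

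Of microRNA genes, 12 were overlapped, by 12 of the 1837 regions (0.653%). The share was close to that of shared regions between genes, 0.716%, and stood at 0.282% over all JKD regions. MicroRNAs guide the cleavage or silencing of matching messenger RNAs, and several of the 12 act in development. At MIR160a, whose product targets auxin response factors, a region on chromosome 2 (16338920 to 16340296) held 1.25 and 2.01 with an IDR of 0.00609, the lowest of the 12. A further pair of JKD-only regions lay in the same stretch, with an IDR of 0.0336 and 0.324. At MIR166a, whose product targets class III HD-ZIP factors in the radial pattern of the root, a region (19175618 to 19176375 on chromosome 2) held 1.01 and 1.62 with an IDR of 0.222. The region over MIR172c, a regulator of AP2-type factors, lay on chromosome 3 (3598877 to 3600022, densities 1.03 and 1.29, IDR 0.254), with its edge 924 bp from GPAT5. At MIR319a, which targets TCP factors, the values were 1.03 and 1.51 with an IDR of 0.230. The others were MIR158b, MIR391, MIR414, MIR843, MIR865, MIR4221, MIR4240 and MIR5999, with an IDR between 0.0861 and 0.284, so that only the region at MIR160a met the limit of 0.05.

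The small RNA genes of the ribosome and the splicing machinery gave few cases. Small nucleolar RNA genes were touched by 7 regions (0.381%), against 0.886% of shared regions between genes and 0.327% of all JKD regions. The densest of the 7 lay beside TUB5, a tubulin gene, at AT1G20015 (chromosome 1, 6940949 to 6941614, densities 1.65 and 1.89, IDR 0.00256). Spliceosomal RNA genes were touched by 2 (0.109%, against 0.141% of all JKD regions), at U2.2 (1.07 and 1.25, IDR 0.240) and U6.4 (1.11 and 1.43, IDR 0.0493). Of the 13 regions over tRNA genes, those at AT2G03660 (1.20 and 1.84, IDR 0.0162) and AT1G49460 (1.19 and 1.86, IDR 0.0243) were the most reproducible.

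A JKD-only region between genes lay within 1000 bp of 1739 of 27444 protein-coding genes (6.34%). Of these genes, 1314 (75.6%) also had a BLJ region within 1000 bp, where 80.8% of all protein-coding genes had one. A JKD region from outside the set of 1837 was within 1000 bp of 1202 (69.1%), where 76.8% of all protein-coding genes had a JKD region of any kind that near. For 312 (17.9%) no region of either list other than JKD-only regions between genes lay within that distance. Of 132 root and hormone genes in 10 lists, 17 (12.9%) had a JKD-only region between genes within 1000 bp. These list genes have a median of 5869 bp free of coding genes on both sides together, against 1855.5 bp over all genes. The part of this free space in the share, and in the counts per list below, was not tested. The lists were chosen with results of these data known, and no list was tested.

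Ground tissue regulators had 2 of 13 members near such a region. SHR had a region on chromosome 4 (17694545 to 17695108), whose edge lay 685 bp from the gene, with 1.08 and 1.54 and an IDR of 0.164, and a BLJ region 200 bp from it. NUTCRACKER (NUC), also the only one of 16 IDD genes, had a region 949 bp away on chromosome 5 (17771122 to 17771906) with 0.961 and 1.52 and an IDR of 0.334. Neither met the IDR limit. Within 1000 bp of each gene there was also at least 1 BLJ region and a further JKD region from outside the set.

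The denser regions beside a ground tissue regulator lay farther out, at SCHIZORIZA (SCZ, HSFB4, AT1G46264), a heat shock factor needed for separate cell fates in the root. In the stretch beside this gene on chromosome 1, a region with its midpoint 8207 bp away (17216034 to 17216989) held 1.63 and 1.84 with an IDR of 0.00330, at a density percentile of 98.5. Another, 4878 bp away (17219441 to 17220240), held 1.17 and 2.26 with an IDR of 0.0334, at 96.9. The nearest BLJ regions were 15426 and 18833 bp from them. Regions beyond 1000 bp were looked at after the values had been seen.

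Of QC and stem cell genes, 4 of 13 had a JKD-only region within 1000 bp. BBM (AT5G17430), an AP2-type factor of the PLETHORA group that maintains the stem cell niche, was touched at its edge by a region on chromosome 5 (5741967 to 5742638) with 1.09 and 1.58 and an IDR of 0.0421. The nearest BLJ region lay 8542 bp away. BRAVO (MYB56, AT5G17800), which holds back divisions of the QC, had the densest of the 4, 272 bp away (5876249 to 5876840), with 1.35 and 1.88 and an IDR of 0.00382. PLT5 had a region 324 bp away with 0.978 and 1.47 and an IDR of 0.332, and PLT7 one 786 bp away with 1.06 and 1.34 and an IDR of 0.270. BBM and PLT5 had no BLJ region and no other JKD region within 1000 bp, while BRAVO and PLT7 had both.

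Hormone genes followed. Of auxin genes, 3 of 16 were near a region, of which ARF19, an activating auxin response factor, had the most reproducible, touching the gene (chromosome 1, 6632995 to 6633852, densities 1.28 and 1.72, IDR 0.0226). IAA14, a repressor of lateral root initiation, was touched by one with 1.03 and 1.36 (IDR 0.102), and the kinase gene PID had one 681 bp away with 1.09 and 1.38 (IDR 0.0664). Of gibberellin genes, 2 of 18 were near a region, both DELLA repressors, GAI (0.989 and 1.31, IDR 0.264) and RGL3 (1.06 and 1.64, IDR 0.261). ARF19 alone of these 5 met the IDR limit.

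Of cell cycle genes, 3 of 14 had a region within 1000 bp. CYCD4;1, a D-type cyclin gene, had one 74 bp away on chromosome 5 (26140937 to 26141395) with 1.10 and 1.82 (IDR 0.121), and neither a BLJ region nor another JKD region within 1000 bp. KRP2, an inhibitor of cyclin-dependent kinases, had a pair within 1000 bp, of which the closer (264 bp, 1.08 and 1.70, IDR 0.158) lay 255 bp from a BLJ region. KRP1 had one 692 bp away with 1.11 and 1.32 (IDR 0.156). The endodermis barrier list had 2 of 16, both of suberin synthesis, GPAT5 as above and ASFT (0.989 and 1.27, IDR 0.184). The stele list had 1 of 12, the cytokinin receptor gene AHK4 (1.08 and 1.38, IDR 0.121). None of the 16 epidermis and root hair genes and none of the 4 root cap genes had one.

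When the next protein-coding gene on either side counted at any distance, 32 of the 132 genes (24.2%) stood beside a JKD-only region, against 11.7% of all protein-coding genes. The list genes also have more room around them, with a median of 5869 bp free of coding genes on both sides together, against 1855.5 bp over all genes. Among genes with under 1000 bp of free space, 0 of 13 list genes and 1.90% of all genes stood beside one. From 1000 to under 2000 bp it was 3 of 13 list genes (23.1%) and 6.57% of all genes, and from 2000 to under 4000 bp 2 of 17 list genes (11.8%) and 13.8% of all genes. Among genes with 4000 to under 8000 bp of free space the shares were 9 of 46 list genes (19.6%) and 23.5% of all genes, and with 8000 bp or more they were 18 of 43 list genes (41.9%) and 31.3% of all genes. The part of this free space in the pooled shares was not tested. The distances that follow are again from the midpoint. Among epidermis genes, TTG1, a WD40 protein that sets cell fate, then had a region 3316 bp away with 1.47 and 1.67 (IDR 0.0119) and a nearer one, 1582 bp away, with 1.03 and 1.61 (IDR 0.298), and CPC, TRY and RSL2 had regions with an IDR above 0.08. GA3OX1, an enzyme that makes active gibberellin, had one 2944 bp away with 1.16 and 1.65 (IDR 0.0443), and the class III HD-ZIP gene PHV one 2327 bp away with 1.20 and 1.67 (IDR 0.0423).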

How the data were processed

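The precipitated DNA was amplified linearly, made into Nextera libraries with transposons and read as single ends of 50 bp, per the labels' protocols. CASAVA and Bowtie on TAIR9 were named in the submitters' processing notes, without versions. How peaks were called, how the density was scaled and whether the control entered are all not given in the sources used here. The authors deposited 1 list of regions per factor, with positions, a density signal per replicate and an IDR. The deposited IDR, like the q-value of a test, is lowest for the most reproducible regions. No per-sample column was left unused (0).

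Genes came from the NCBI table of TAIR10.1. TAIR10 kept the chromosome sequences of TAIR9. JKD cover rose most steeply within 100 bp of the edges of coding genes of at least 2000 bp on each chromosome. Printed coordinates are those of the lists. Distances count the bases in between. Wide blocks are runs of 40000 bp windows, in steps of 1000 bp, covered to 90% or more by JKD regions.

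No test was made, since regions are not replicates of a condition. The members and gene lists were chosen with earlier results of these data known. Named were the 10 densest regions and the 10 of lowest IDR outside wide blocks, the 5 widest, the 5 farthest from coding genes, those at list genes and small RNA genes, and those at the limits of the rule. Overlap functions were tested on simulated intervals. A planned search for the IDD binding motif in promoters was not run, as no sequence was used here. Scripts ran on scipy 1.17.1, matplotlib 3.10.9, numpy 2.4.6 and pandas 2.3.3 under Python 3.11.15.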

Additional observations from a re-analysis of the deposited data

How the results depend on the processing

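The number of JKD-only regions between genes, 1837, depended most on the IDR limits. It was 588 with JKD regions at an IDR of 0.1 or less, 282 at 0.05 or less and 3930 where only BLJ regions at 0.1 or less counted. Other definitions kept it within 1.5 times, from 1367 with no base in a coding gene to 2254 where a shared region had to be covered to 50% by a BLJ region. The median density percentile ranged from 43.0 to 48.9 when either density value was left out. An IDR limit of 0.1 raised the share that met it to 32.0%. At that limit the median width was 661 bp. The share in gene-poor windows was 3.21% below 20% coding cover and 10.4% below 40%. Non-coding genes held the midpoint of 13.9%, against 15.4% of shared regions between genes. Genes near a region numbered 2620 within 2000 bp, and 574 with JKD regions at an IDR of 0.1 or less. List genes numbered 9 within 500 bp and 4 at that IDR. The cause of these changes was not tested, beyond the smaller sets that stricter limits leave. No paired analysis was possible because each factor has 1 list made from both replicates, without replicate numbers. Limits of 0.01 and flanking genes at any distance were added after seeing the data. Depth is unknown, so regions near the calling limit cannot be weighed by reads.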
